A study of Mus musculus with 2 samples.

Results

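The miR-15/16 microRNAs of the mouse liver at embryonic day 13.5 were described from 5 rows of a table of 1973 microRNA genes: Mir15a and Mir16-1 in the host gene Dleu2, Mir15b and Mir16-2 in the host gene Smc4, and the row Mir497b. The genes were chosen by name. For Mir497b the reads on the opposite strand were used, because they lie on the related gene Mir497, and they are called Mir497 from here on. Small RNA was sequenced as 2 libraries from separate biosamples of B6NCrl embryos, each a pool of both sexes, and RNA below 30 bases was selected. Both libraries belong to 1 group of healthy, untreated liver, so no conditions could be compared, and the values are levels and differences between the replicates.

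MicroRNAs of this family are short RNAs that bind messenger RNAs through the bases at positions 2 to 8, the seed. They are known for repressing cyclins and other drivers of cell division, and the apoptosis inhibitor Bcl2. The gene pair at Dleu2 is deleted in many human chronic lymphocytic leukaemias, where it acts as a tumour suppressor. The fetal liver is known as a site of blood formation in which both blood precursors and hepatoblasts divide.

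The mature microRNAs below carry the comparison, since they show that the arms from the 3 loci share a seed and differ outside it. They are given 5′ to 3′ from RefSeq (GRCm38.p6, the same build as mm10) with the seed in capitals.
miR-15a-5p: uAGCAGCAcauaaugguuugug
miR-15b-5p: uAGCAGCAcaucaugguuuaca
miR-16-5p: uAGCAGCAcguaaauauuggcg
miR-497a-5p: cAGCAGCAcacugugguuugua
miR-195a-5p: uAGCAGCAcagaaauauuggc
Counted from the 5′ end, miR-15a-5p and miR-15b-5p had the same base at 18 of 22 positions and differed by A12C, G20A, U21C and G22A. miR-15a-5p and miR-16-5p had the same base at 16 of 22 positions, with A10G as the nearest difference to the seed. miR-16-5p and miR-195a-5p differed only by G10A and U11G over the 21 positions compared. miR-497a-5p differed from miR-15a-5p by U1C, U11C, A12U, A13G and G22A.

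The 2 copies of miR-16 limit what can be measured. Mir16-1 and Mir16-2 encode the same miR-16-5p, and their hairpins share a run of 23 bases, shown here because a read within it matches both hairpins (the mature microRNA is in capitals).
Shared by Mir16-1 and Mir16-2: UAGCAGCACGUAAAUAUUGGCGu
The opposite arms differ at 10 of 22 positions, and their seeds, again in capitals, are not the same.
miR-16-1-3p: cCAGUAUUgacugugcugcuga
miR-16-2-3p: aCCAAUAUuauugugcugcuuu
The tables keep reads with more than 1 mapped place in a row of their own, outside any gene. They made up 36.7% of all reads in replicate 1 and 32.0% in replicate 2, and their share of miR-16 was not tested. A read of the whole miR-16-5p lies inside the shared run and so has more than 1 mapped place. The values of Mir16-1 and Mir16-2 are therefore counts of the remaining reads, with 1 mapped place, and not the level of miR-16. They leave out whole miR-16-5p reads, while the values of Mir15a, Mir15b and Mir497 add both arms of a hairpin. How the counted reads split between the arms was not tested. Each mature sequence of Mir15a, Mir15b and Mir497 belongs to 1 gene in the RefSeq table. Among the 916 genes with a mature sequence in RefSeq, 53 shared some but not all of their mature microRNAs with another gene. Mir16-1 and Mir16-2 were among these 53, and the 36 of the 53 that were detected had a median of 52.9 CPM. A further 34 genes shared every mature microRNA, and the 4 detected had a median of 112 CPM. Of 829 genes that shared none, 290 were detected, with a median of 190 CPM. The other 1057 rows had no mature sequence in RefSeq and could not be classed, and the 38 of them detected had a median of 110 CPM. Mir16-1 and Mir16-2 lay above all of these medians.

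The libraries held 2608198 counts in replicate 1 and 4288002 in replicate 2, and levels are given as CPM, counts per 1000000 of these totals. Levels were not divided by hairpin length, since a read is a mature arm and not a piece of a long transcript. Detection required 10 or more counts in both libraries, which held for all 5 genes, against 18.7% of the 1973 genes. The tissue label was checked with marker microRNAs. Mir122, the hallmark microRNA of hepatocytes, ranked first of all genes, and the 5 hepatocyte markers held 8.45% and 8.54% of counts, the 3 erythroid markers 1.80% and 3.30%, the 3 endothelial markers 5.82% and 5.52%, the 4 leukocyte markers 1.02% and 1.04%, and the 4 mesenchymal markers 2.08% and 2.00% in replicates 1 and 2. Of 5 neural markers, Mir9-2, Mir124a-1, Mir124a-2 and Mir124a-3 had no counts, and Mir9-3 had 8 and 20. Of 4 striated muscle markers Mir133a-1 and Mir133a-2 had none, while the list reached 0.0871% and 0.0522%, almost all of it Mir206. The Mir9, Mir124a and Mir133a genes have copies, and reads that match more than 1 copy are left out, as for miR-16. Of the 34 genes that shared every mature microRNA, only 4 were detected. The absent or low counts of these copies are therefore no check of the tissue. The leukocyte share leaves out 122527 and 194599 reads opposite the row Mir142b in replicates 1 and 2. Mir223, the highest of the 4 leukocyte markers, had 26129 and 43566 counts. The leukocyte share is therefore not comparable with the shares of the other types. Other lists hold genes with copies, such as Mir194-1, Mir194-2 and Mir199a-2, whose counts are uncertain. The shares of those types are therefore not strictly comparable with each other either. Mir142, Mir9-1 and Mir1a-2 were not analysed here. In whole liver, fewer cells of a type and less RNA per cell cannot be told apart.

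Mir15a was the highest of the 5 genes. It had 21754 counts, or 8341 CPM, in replicate 1 and 37731 counts, or 8799 CPM, in replicate 2, with a mean of 8570 ± 324 CPM (SD, n = 2). By mean level it took place 33 of 1973 rows by the counts used, at place 36 in replicate 1 and 33 in replicate 2. In 10 rows, Mir497b and Mir142b among them, opposite-strand reads numbered at least 100 and exceeded those on the gene strand, and apart from Mir497b these reads do not enter the places. The hairpin of Mir15a (ENSMUSG00000093007.1) lies on the minus strand at chr14:61632027-61632110 (mm10) and fell within an intron of all 8 Dleu2 transcripts that span it.

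Mir16-1 followed at 16648 counts, or 6383 CPM, in replicate 1 and 26264 counts, or 6125 CPM, in replicate 2. Its mean was 6254 ± 182 CPM (SD, n = 2), which put it at place 42 in both libraries. Its hairpin (ENSMUSG00000092995.1) lies at chr14:61631880-61631972, 54 bases downstream of Mir15a in the direction of transcription. It is intronic to most Dleu2 transcripts, and 13 of its 93 bases overlap an exon of 1 of the 9 transcripts at that position. Together the Dleu2 pair held 1.48% ± 0.0142 of counts (SD, n = 2), or 14724 CPM in replicate 1 and 14924 CPM in replicate 2.

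The pair in Smc4 was lower. Smc4 is a core subunit of condensin, the complex that compacts chromosomes before division, so this pair sits in a gene of the cell cycle itself. Mir15b had 8218 counts, or 3151 CPM, in replicate 1 and 12687 counts, or 2959 CPM, in replicate 2, with a mean of 3055 ± 136 CPM (SD, n = 2) and place 59. Mir16-2 had 2624 counts, or 1006 CPM, in replicate 1 and 4929 counts, or 1149 CPM, in replicate 2, with a mean of 1078 ± 101 CPM and place 98. Its placement was the least even, at 98 in replicate 1 and 93 in replicate 2. Both hairpins lie on the plus strand, Mir15b (ENSMUSG00000065580.1) at chr3:69009772-69009835 and Mir16-2 (ENSMUSG00000065606.1) at chr3:69009902-69009996, 66 bases apart, in an intron of all 5 Smc4 transcripts that span them. Their sum was 4157 CPM in replicate 1 and 4108 CPM in replicate 2.

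Mir497 was the rarest, at 796 counts, or 305 CPM, in replicate 1 and 1264 counts, or 295 CPM, in replicate 2. Its mean of 300 ± 7.36 CPM (SD, n = 2) gave place 149. Mir497 lies on the plus strand at chr11:70234717-70234800, entirely inside the span of Mir497b (ENSMUSG00000070109.2, minus strand, chr11:70234692-70234816), so its reads were counted as opposite to Mir497b. On the strand of Mir497b itself there was 1 count in replicate 1 and 4 in replicate 2. The other 4 genes had no count on the opposite strand in either library. The sequence printed above for miR-497a-5p and the one RefSeq gives for the opposite strand differ in seed, which is why the strand matters for naming the microRNA.
miR-497b: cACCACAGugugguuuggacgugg
Among genes in the RefSeq table the seed of miR-497b is otherwise found in miR-140-3p alone.

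**Figure D1:**
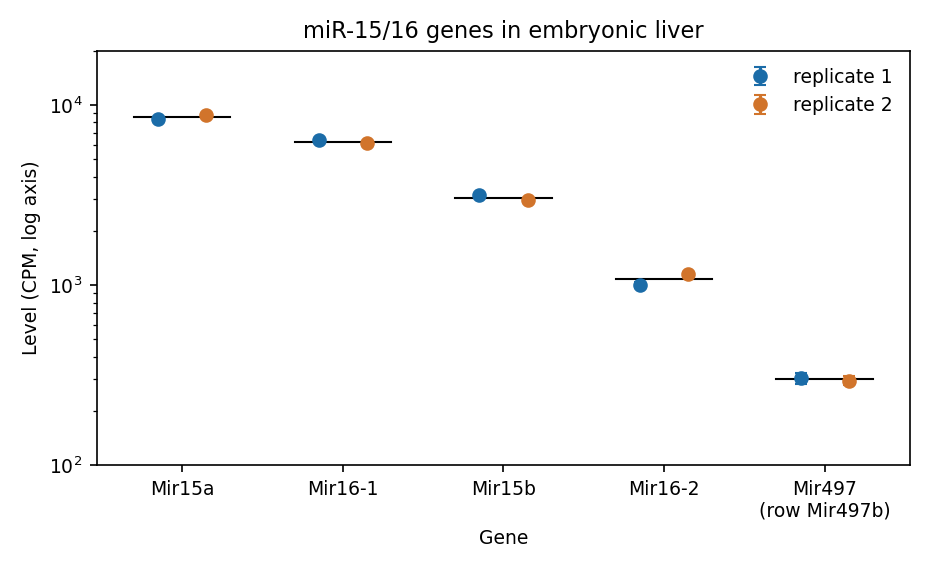
Level of each gene in CPM on a log axis, with replicate 1 in blue and replicate 2 in orange. Bars are exact 95% counting intervals, mostly smaller than the points, and black lines are the means of the 2 libraries. The order from Mir15a at 8570 CPM to Mir497 at 300 CPM was the same in both libraries.

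The order of levels, Mir15a, Mir16-1, Mir15b, Mir16-2 and Mir497, held in both libraries, and no pair of neighbours overlapped. The closest neighbours were Mir15a and Mir16-1, with a count ratio of 1.31 in replicate 1 (exact 95% counting interval 1.28 to 1.33) and 1.44 in replicate 2 (1.41 to 1.46). Mir16-1 exceeded Mir15b by 2.03-fold in replicate 1 and 2.07-fold in replicate 2. Mir16-2 exceeded Mir497 by 3.30-fold in replicate 1 and 3.90-fold in replicate 2. Places that involve a miR-16 gene rest on reads with 1 mapped place. A two-sided permutation or sign test over 2 libraries cannot give a p below 0.5, so these ratios carry no p-value, and the counting intervals do not cover the spread between biosamples.

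Between the loci, the comparison least touched by the miR-16 copies is Mir15a against Mir15b. Mir15a exceeded Mir15b by 2.65-fold in replicate 1 (2.58 to 2.72) and by 2.97-fold in replicate 2 (2.91 to 3.03), a mean log2 ratio of 1.49 ± 0.12 (SD, n = 2). For the miR-16 genes the ratio of Mir16-1 over Mir16-2 was 6.34 in replicate 1 and 5.33 in replicate 2. Summed over both genes of each pair, the Dleu2 locus exceeded the Smc4 locus by 3.54-fold in replicate 1 (3.47 to 3.62) and 3.63-fold in replicate 2 (3.57 to 3.69). The SD of this log2 ratio, 1.84 ± 0.03, was smaller than that of either gene-to-gene ratio, at 0.12 for the miR-15 genes and 0.18 for the miR-16 genes.

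**Figure D2:**
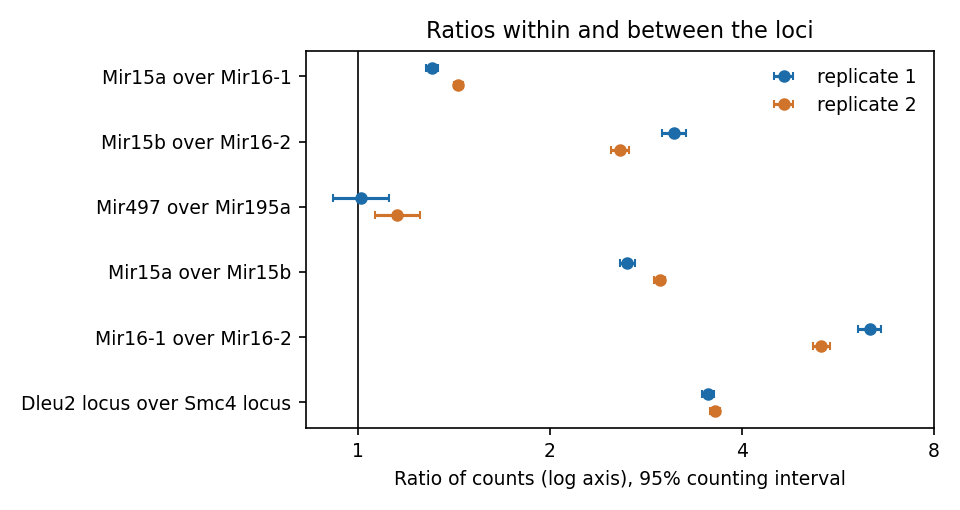
Ratios of counts within a library on a log axis, with replicate 1 in blue, replicate 2 in orange and exact 95% counting intervals. Mir15a exceeded Mir16-1 by 1.31-fold and 1.44-fold, Mir15b exceeded Mir16-2 by 3.13-fold and 2.57-fold, and Mir497 and Mir195a were nearly level.

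Each of the 3 loci places a miR-15 type hairpin upstream of a miR-16 type hairpin, and the level within a pair was compared in that order. Mir15a exceeded Mir16-1 by a log2 ratio of 0.45 ± 0.10 (SD, n = 2) and Mir15b exceeded Mir16-2 by 1.51 ± 0.20, or 3.13-fold in replicate 1 (2.997 to 3.27) and 2.57-fold in replicate 2 (2.49 to 2.66). Mir497 lies 241 bases upstream of Mir195a, a gene of the same family that is known in mouse heart for stopping cell division after birth. Mir195a had 787 counts, or 302 CPM, in replicate 1 and 1096 counts, or 256 CPM, in replicate 2. The ratio of Mir497 over Mir195a was 1.01 in replicate 1 (0.915 to 1.12) and 1.15 in replicate 2 (1.06 to 1.25), and its log2 mean of 0.11 ± 0.13 was no larger than its spread. In the X-linked pair Mir322 and Mir503, the mouse counterpart of human miR-424 and miR-503, the upstream gene was higher by 42.0-fold in replicate 1 and 40.2-fold in replicate 2. Among 115 pairs of adjacent detected genes on the same strand within 10 kb, the median difference was 3.22 in log2, or 9.34-fold. Ordered from the smallest difference, Mir497 with Mir195a took place 2, Mir15a with Mir16-1 place 10, Mir15b with Mir16-2 place 32 and Mir322 with Mir503 place 85. The places of the pairs with miR-16 rest on reads with 1 mapped place. Other pairs among the 115 also hold genes with copies, such as Mir19b-1 and Mirlet7c-1, so their differences and the median are uncertain too. The median gap of the 115 pairs was 522 bases, against 54 at Dleu2, 66 at Smc4 and 241 at Mir497. The places therefore do not show that the pairs of the 3 loci were unusually even.

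**Figure D3:**
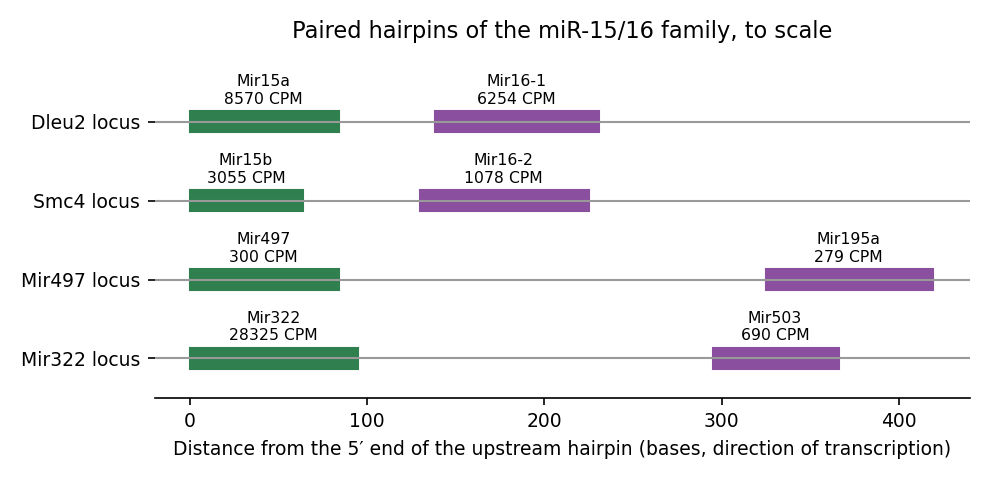
Hairpins of 4 gene pairs drawn to scale, with distance in bases from the 5′ end of the upstream hairpin, which is green, and the downstream hairpin in purple. The printed levels are mean CPM, from 28325 for Mir322 to 279 for Mir195a, and the gap is 54 bases at Dleu2, 66 at Smc4, 241 at Mir497 and 200 at Mir322.

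The seed AGCAGCA at positions 2 to 8 was found in mature microRNAs of 11 genes in RefSeq, 1 of them Mir497, which was read from the opposite strand of the row Mir497b, and each of the others with a row of its own. Together they held 4.80% of counts in replicate 1 and 4.77% in replicate 2. These are counts of whole hairpins. Where RefSeq gives another arm it has a different seed, and the arms were not separated. The shares are therefore of genes and not of microRNAs with the seed. Mir322 made up 59.4% and 59.0% of these counts in replicates 1 and 2. The 4 miR-15 and miR-16 genes made up 39.3% and 39.9%, with Mir15a at 17.9% ± 0.747 (SD, n = 2), Mir16-1 at 13.1% ± 0.331, Mir15b at 6.38% ± 0.259 and Mir16-2 at 2.25% ± 0.221. Mir497 and Mir195a added 0.627% ± 0.0130 and 0.582% ± 0.0659. These shares leave out every unplaced read of miR-16-5p, so the share of the miR-16 genes, and with it that of all others, is uncertain. The rest of the 11 genes, Mir195b, Mir6342, Mir6353 and Mir6419, had no count in either library, so a level of up to 1.15 CPM (replicate 1) or 0.700 CPM (replicate 2) is allowed, counting error only.

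Mir322 carries the family seed in the arm shown here for comparison.
miR-322-5p: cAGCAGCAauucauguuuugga
Mir322 stood at 28503 CPM in replicate 1 and 28147 CPM in replicate 2, place 7 by the counts used. By these counts it exceeded the sum of the 5 genes described here, 19186 CPM in replicate 1 and 19327 CPM in replicate 2. That sum leaves out whole miR-16-5p reads, while each mature sequence of Mir322 belongs to 1 gene. Whether the order would hold with those reads was not tested. Other relatives have an altered or shifted seed, as these show.
miR-503-5p: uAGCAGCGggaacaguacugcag
miR-107-3p: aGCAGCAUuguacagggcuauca
Mir107 and the Mir103 genes lie in introns of pantothenate kinase genes, which act in coenzyme A synthesis. Mir107 had 1923 CPM in replicate 1 and 1857 CPM in replicate 2, and Mir503 had 679 CPM and 701 CPM. Mir103-2 had 79.4 CPM in replicate 1 and 103 CPM in replicate 2. Mir103-1 had 5 counts in replicate 1 and 30 in replicate 2 and was not detected. Mir103-1 and Mir103-2 encode the same miR-103-3p and share a run of 27 bases, so their counts are uncertain, like those of the miR-16 genes.

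**Figure D4:**
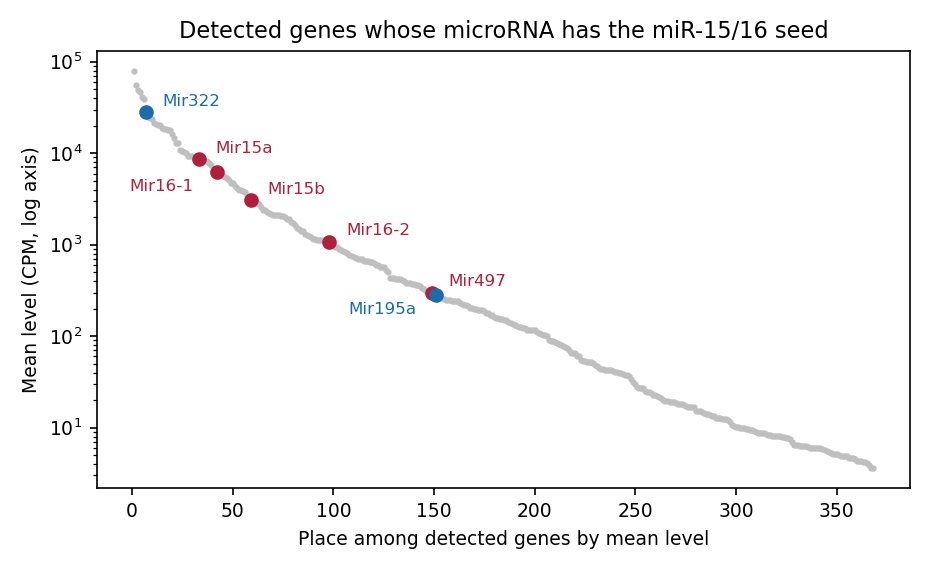
Mean level in CPM on a log axis against place, for all 368 detected genes in grey. Genes whose mature microRNA has the seed AGCAGCA are marked, the 5 genes described here in red and Mir322 and Mir195a in blue, and they run from place 7 for Mir322 to place 151 for Mir195a.

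To compare the libraries, each gene's counts were tested for the same split as the library totals by an exact binomial test (two-sided), with p-values adjusted over all 711 genes with a count by the Benjamini-Hochberg method. It compares 1 library with 1 library and treats reads as independent, so its p-values and calls cover counting error only and not the spread between biosamples. It called 20.1% of the 711 genes at an adjusted p under 0.05, and 62% of the 150 genes with at least 2000 counts over both libraries, a limit set after the values were seen and which all 5 genes pass. Of the 5 genes, 4 were called, 2 higher and 2 lower in replicate 1, where 11.5% and 8.58% of all genes were called higher and lower. The 82 genes called higher and 61 called lower became 63 and 72 under TMM scaling, with 3 of the 5 genes called. For genes this abundant the 62%, which covers both directions, is the nearer background. Its limit of 2000 counts lies well below the counts of the 4 called genes.

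Mir15a was lower in replicate 1 by a log2 difference of -0.08 (exact 95% counting interval -0.10 to -0.05, adjusted p = 3.73e-09, exact binomial test). Mir16-1, from the same host, was higher in replicate 1 by 0.06 (0.03 to 0.09, adjusted p = 0.000257, exact test). That call was lost with other library sizes, with adjusted p = 0.17 under TMM scaling and 0.141 under DESeq2 size factors. Mir15b was higher by 0.09 (0.05 to 0.13, adjusted p = 7.84e-05, exact test), and its partner Mir16-2 was lower by a log2 difference of -0.19 (-0.26 to -0.12, adjusted p = 3.17e-07, exact test). Mir497 differed by 0.05 (-0.08 to 0.18) and was not called (adjusted p = 0.682, exact test), and its counting interval leaves room for a difference of that size in either direction. Of the 7 other genes of the family and its wider group, 2 were called higher in replicate 1, Mir195a by 0.24 (adjusted p = 0.00306, exact test) and Mir322 by 0.02 (adjusted p = 0.0356, exact test). The Mir103 genes were called lower, Mir103-2 by a log2 difference of -0.38 (adjusted p = 0.00969, exact test) and Mir103-1 by -1.87 on few counts (adjusted p = 0.0244, exact test).

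All 5 differences were small. The largest, of Mir16-2, was 1.14-fold toward replicate 2, and that of Mir15a was 1.05-fold. The median difference over the 368 detected genes was 1.13-fold, and 54.3% of them differed by less than Mir16-2 did, 30.4% by less than Mir15b, 26.1% by less than Mir15a, 19.3% by less than Mir16-1 and 15.8% by less than Mir497. The spread between the libraries beyond counting error, as a biological coefficient of variation from edgeR, was 13.5%, 1 value over all 711 genes with a count. The SD of 2 libraries, which includes counting error, was 3.78% of the mean for Mir15a, 2.92% for Mir16-1, 4.45% for Mir15b, 9.41% for Mir16-2 and 2.46% for Mir497. These are unlike measures and do not show that the 5 genes were steadier than others. In the Dleu2 and Smc4 pairs the log2 differences of both genes had opposite signs, a pattern picked out after the values were seen, and at Dleu2 it rests on Mir16-1, whose call was lost with other library sizes. Mir497 and Mir195a were both on the side of replicate 1. The sums of the Dleu2 and Smc4 pairs differed less, with log2 -0.02 (counting interval -0.04 to -0.00125) for the Dleu2 pair and 0.02 (-0.02 to 0.05) for the Smc4 pair. The 3 erythroid markers did not move together between the same libraries. Mir451a was called lower in replicate 1, at 10747 CPM against 26335 CPM in replicate 2. Mir144 was called higher, at 6403 CPM in replicate 1 and 5871 CPM in replicate 2, and Mir486 was not called, at 834 CPM in replicate 1 and 819 CPM in replicate 2. The share of reads mapped to several places was 36.7% in replicate 1 and 32.0% in replicate 2. Their part in these differences was not tested.

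**Figure D5:**
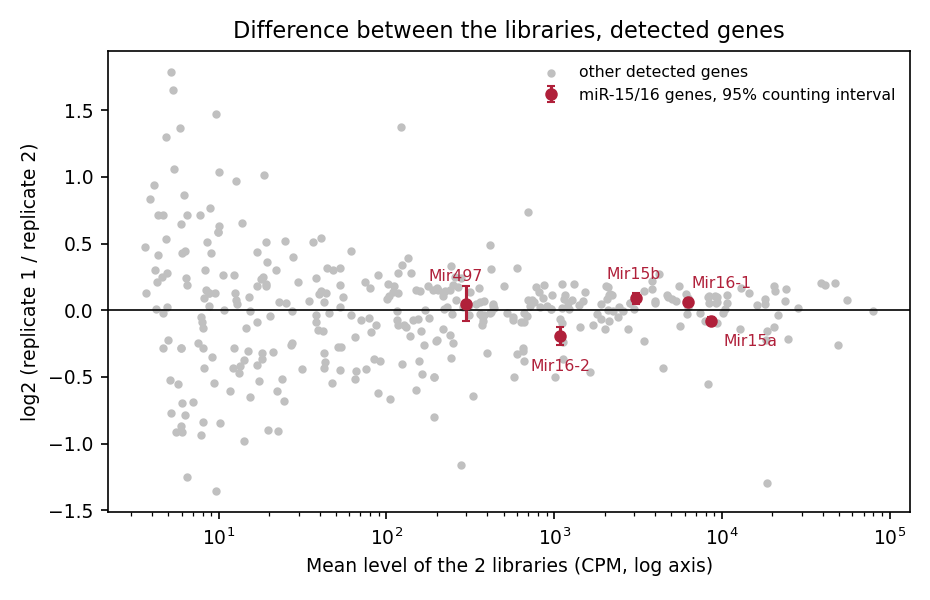
The log2 of replicate 1 over replicate 2 against mean level in CPM on a log axis, for the 368 detected genes, with the 5 miR-15/16 genes in red with exact 95% counting intervals. The 5 genes lie between -0.19 and 0.09, inside the cloud of other genes.

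Genes of closest level were found by the Euclidean distance in log2(CPM + 1) over the 2 libraries, a measure of level only. For Mir15a these were Mir382 at 8345 ± 210 CPM and Mir92-1 at 8363 ± 441 CPM (SD, n = 2), at distances of 0.11 and 0.14. For Mir16-1 they were Mir151 at 6280 ± 286 CPM and Mir381 at 6318 ± 84.2 CPM, at 0.02 and 0.03. For Mir15b they were Mir341 at 2994 ± 16.3 CPM and Mir433 at 2831 ± 78.1 CPM. For Mir16-2 they were the hepatocyte microRNAs Mir148a at 1079 ± 35.5 CPM and Mir194-2 at 1127 ± 129 CPM. For Mir497 they were Mir673 at 310 ± 5.52 CPM and Mir183 at 309 ± 5.23 CPM. Mir92-1 and Mir194-2 have copies, so their counts are uncertain, like those of Mir16-1 and Mir16-2.

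Other microRNAs known as brakes on proliferation, from the let-7, miR-26, miR-29 and miR-34 families, were set beside the 5 genes as a list of 15, all detected. The 5 genes held 1.92% of counts in replicate 1 and 1.93% in replicate 2, and the list held 12.2% and 10.7%. Mirlet7g at 47103 ± 4689 CPM, Mir26b at 38953 ± 3912 CPM and Mirlet7i at 20485 ± 1810 CPM (SD, n = 2) led it, and each exceeded Mir15a. The p53-induced genes were lower than all of the miR-15 and miR-16 genes, with Mir34a at 52.6 ± 8.06 CPM, Mir34b at 8.48 ± 2.10 CPM and Mir34c at 168 ± 21.6 CPM. Of the list, 5 genes were called higher and 2 lower in replicate 1, with a median log2 difference of 0.18. All 5 called higher had at least 2000 counts over both libraries, where 62% of genes were called in either direction. Mirlet7b also passed that limit and was not called, and the rest of the list lay below it. The 5 are therefore read against the 62% among the genes above the limit, and not as a share of the 15. The median was 0.05 over the 5 miR-15/16 genes and 0.03 over all detected genes. Several let-7, miR-26 and miR-29 genes have copies, so their counts are uncertain too.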

How the data were processed

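Raw counts of reads for each gene, on build mm10 and GENCODE M4, are what the authors deposited, per the labels' notes and the file lists. No aligner or counter is named: it is not given in the sources used here. Gene-strand counts were taken, except for the row Mir497b, where the opposite strand was read. Rows for unmapped, multiply mapped, unassigned and ambiguous reads were left out of totals: in replicates 1 and 2 these were 19.6% and 24.2% unmapped, 36.7% and 32.0% mapped to several places and 5.72% and 5.64% outside genes, with 0 and 1 ambiguous reads. Names and coordinates came from GENCODE M21 (same build), which matched 1894 of 1973 identifiers. The other 79 held no counts on the strand used. Mature and hairpin sequences came from RefSeq (GRCm38.p6), in which 916 of 1973 genes had a mature sequence by symbol. Seeds, shared runs and base differences were computed from these. The RefSeq table used here gave no hairpin for Mir15a.

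Levels are mean ± SD of 2 libraries, which the labels give as biological replicates. Counting intervals are exact (Clopper-Pearson, 95%), and intervals and the limit for a count of 0 (3 counts) cover counting error only, as no molecular identifiers are used. Replicates were compared with the exact binomial test in scipy 1.17.1 under Python 3.11.15, which was tested on simulated 2-fold changes in genes of 100 or more counts. That limit was raised from 20 counts, where too few changes were recovered, so recovery in rarer genes is lower. edgeR 4.0.16 gave TMM factors and the coefficient of variation, DESeq2 1.42.0 the alternative size factors, in R 4.3.3. The quasi-likelihood test was not used, since 1 group gives no contrast. Named genes were the members, the wider family group, genes sharing a seed, up to 3 of the other brakes on proliferation with the highest level, and the 2 genes of closest level per member. Mir34a, Mir34b and Mir34c, Mirlet7b, Mir451a, Mir144, Mir486 and the other marker genes given by name were named outside this rule, after their values were seen. The members and lists were chosen with earlier results of these data known. Alternatives were the strand column, scaling, denominator, detection limit, count filter and each library alone.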

Additional observations from a re-analysis of the deposited data

Results flagged for a closer look

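Reads mapped to several places lie outside the counts used above. They came to 36.7% of 7671547 reads in replicate 1 and 32.0% of 12554684 reads in replicate 2, and reads within the 23 bases shared by Mir16-1 and Mir16-2 match both genes. How many of them were miR-16 was not tested. On the strand of Mir497b itself, which was not used for its level, replicate 2 held 4 counts and replicate 1 held 1. It is listed because 4 is more than 3 counts, the limit used here for a count of 0, which is a limit on counting error and not a measured background.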

How the results depend on the processing

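With reads on both strands the total grew and the levels were 7677 CPM for Mir15a, 5603 for Mir16-1, 2737 for Mir15b, 965 for Mir16-2, 269 for Mir497, 13280 for the Dleu2 pair, 3702 for the Smc4 pair and 17251 for the 5 genes together. Per 1000000 of all mapped reads, a larger denominator, they were 3746, 2730, 1333, 472, 131, 6476, 1805 and 8411 in the same order. A detection limit of 1 count per library gave 559 detected genes against 368 at 10. The 5 genes were detected under each limit tried, up to 50 counts. With reads on both strands the places were 37 for Mir15a, 47 for Mir16-1, 65 for Mir15b, 106 for Mir16-2 and 157 for Mir497, in place of 33, 42, 59, 98 and 149. TMM and DESeq2 scaling moved no mean level by more than 1 SD. Their factors raise 1 library as they lower the other, so a mean of 2 libraries could hardly move. This is therefore no test of the levels. The 5 log2 ratios kept their sign on both strands and without either library, from 0.39 to 0.52 for Mir15a over Mir16-1, 1.36 to 1.65 for Mir15b over Mir16-2 , 0.02 to 0.21 for Mir497 over Mir195a, 1.40 to 1.57 for Mir15a over Mir15b and 1.82 to 1.86 for the Dleu2 pair over the Smc4 pair. Leaving out 1 library only returns the ratio of the other, as given above. On both strands only the ratio with Mir497 could change, by 1 added count in replicate 1 and 4 in replicate 2. The other genes in these ratios had no opposite-strand reads. Of 20 alternatives on the differences between the libraries of single members, 18 kept direction and call, and the call of Mir16-1 was lost under TMM and DESeq2 scaling. The number of genes called ran from 135 to 153. The split of 82 higher and 61 lower in replicate 1 became 63 and 72 under TMM and 64 and 72 under DESeq2 scaling. No paired analysis was possible because there is 1 group only, with nothing to pair.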
